A study of Mus musculus with 5 samples.

Results

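Cytochrome P450 genes encode haem enzymes that insert oxygen into drugs, toxicants, fatty acids, steroids and vitamins. In mm10, the build of the deposited peak lists, 96 of 21631 protein-coding RefSeq genes on chromosomes 1 to 19 and X carry a symbol made of Cyp, a number, a letter and a number, and all 96 are described here. Of these, 5 have a further letter at the end (Cyp3a41a, Cyp3a41b, Cyp4a12a, Cyp4a12b and Cyp4a30b), and 1 gene left out by the rule was not analysed here. The measure is the occupancy of NKX2-1, a homeodomain transcription factor of the lung epithelium, by chromatin immunoprecipitation with sequencing (ChIP-seq). The tissue is whole lung taken at postnatal day 10 from wild-type mice.

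Nuclei of formalin-fixed lung were sonicated and the chromatin was pooled, and 4 antibodies against NKX2-1 (Abcam133737, Millipore07-601, Abcam76013 and Abcam133638) were used, with 1 library each, beside 1 input library. No replicate error exists for any value, no test was made between antibodies, and all 4 values are given side by side. Whole lung mixes epithelial, endothelial, mesenchymal and immune cells, so the cell type that carried a peak cannot be told. The label of the tissue cannot be checked against transcripts, because only chromatin was measured. After duplicates were removed the antibody libraries held 43031331 to 46547989 tags. The 1 input library, shared by all 4 lists, held 10653749, so the 4 calls at a region are not independent of it. The lists of Abcam133737 and Abcam76013 were shorter (40877 and 41296 peaks) than those of Millipore07-601 and Abcam133638 (57763 and 57891).

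P450 enzymes of the endoplasmic reticulum draw electrons from the reductase Por, and those of mitochondria draw them from the Fdxr and Fdx1 chain. Families CYP1 to CYP3 are known mostly for the oxidation of foreign compounds, family CYP4 for the hydroxylation of fatty acids, and the higher-numbered families for steps in steroid, bile acid, vitamin D and retinoid metabolism. In the lung, club cells and alveolar type 2 cells are the epithelial cells known for P450 activity, and many rodent P450 genes lie side by side in clusters of close relatives. NKX2-1 is known to bind DNA that holds a CAAG core.

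Peaks of different lists were joined into 1 region where they shared at least 1 bp, and a region was counted for a gene by the number of antibodies with a summit inside the gene or within 10 kb of it. The fold of a peak is the authors' ratio of pileup over the local background, and mean fold stands for the average of a region's 4 values. Promoters with summits of all 4 antibodies are the places where sequence and occupancy can be set side by side, and they are rare among these genes. RefSeq promoters of GRCm38.p6 (250 bases before to 50 after the start, 300 in all) were matched for 74 of the 96 genes, which have 84 promoters. Summits of all 4 antibodies lay in 5 of the 84 (5.95%), and in 3792 of 21045 promoters of all genes (18.0%).

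The 5 promoters are printed 5′ to 3′ on the strand of the gene. Capitals mark matches, on either strand, to the letters CACTNNAG or TCAAG, the second of which can lie inside the first. They belong to Cyp3a13 at chr5:137921570-137921869 (minus strand), Cyp4f16 at chr17:32536307-32536606 (plus), Cyp46a1 at chr12:108334066-108334365 (plus), Cyp2j6 at chr4:96553602-96553901 (minus) and Cyp4f13 at chr17:32947312-32947611 (minus).
Cyp3a13: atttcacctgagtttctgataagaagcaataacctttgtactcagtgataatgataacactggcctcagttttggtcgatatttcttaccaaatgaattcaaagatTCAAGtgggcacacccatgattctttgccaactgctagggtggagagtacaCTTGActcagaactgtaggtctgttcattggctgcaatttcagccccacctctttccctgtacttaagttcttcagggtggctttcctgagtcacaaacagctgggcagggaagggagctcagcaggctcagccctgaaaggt
Cyp4f16: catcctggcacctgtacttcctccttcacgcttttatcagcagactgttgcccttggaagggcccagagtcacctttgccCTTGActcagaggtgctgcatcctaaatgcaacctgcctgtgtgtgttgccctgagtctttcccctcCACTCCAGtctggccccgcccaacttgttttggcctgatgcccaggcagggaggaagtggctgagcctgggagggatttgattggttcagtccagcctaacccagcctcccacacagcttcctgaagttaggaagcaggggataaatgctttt
Cyp46a1: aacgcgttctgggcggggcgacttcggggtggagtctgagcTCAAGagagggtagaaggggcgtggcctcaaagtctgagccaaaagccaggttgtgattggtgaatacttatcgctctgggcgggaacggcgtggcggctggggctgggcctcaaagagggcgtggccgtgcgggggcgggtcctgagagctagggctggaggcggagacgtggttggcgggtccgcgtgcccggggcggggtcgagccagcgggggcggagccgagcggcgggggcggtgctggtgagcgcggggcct
Cyp2j6: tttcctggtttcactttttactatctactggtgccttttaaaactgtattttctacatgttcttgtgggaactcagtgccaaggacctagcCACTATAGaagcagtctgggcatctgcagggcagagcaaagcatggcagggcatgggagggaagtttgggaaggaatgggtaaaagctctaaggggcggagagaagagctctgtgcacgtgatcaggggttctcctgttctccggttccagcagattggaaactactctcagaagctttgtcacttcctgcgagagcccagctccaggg
Cyp4f13: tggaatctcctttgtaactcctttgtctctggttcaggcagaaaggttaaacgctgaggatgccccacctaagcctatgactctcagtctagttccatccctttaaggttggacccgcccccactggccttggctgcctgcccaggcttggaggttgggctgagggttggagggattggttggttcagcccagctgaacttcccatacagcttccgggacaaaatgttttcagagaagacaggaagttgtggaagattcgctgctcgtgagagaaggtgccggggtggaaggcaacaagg

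In the Cyp3a13 promoter, TCAAG stood at −144 to −140 bases from the start (negative is upstream) and its reverse complement CTTGA at −93 to −89. The 4 summits there lay at −112 (Abcam133737), −103 (Millipore07-601), −85 (Abcam76013) and −98 (Abcam133638), so all 4 fell between or just beside the matches. Cyp3a13 encodes a member of the drug-oxidising CYP3 family. The Cyp4f16 promoter held CACTCCAG at −103 to −96 and CTTGA at −170 to −166, with summits at −82, −56, −100 and −51 in the same order of antibodies. That promoter lay in the region chr17:32536308-32536655, whose folds were 7.50, 7.13, 7.39 and 12.4. Cyp4f enzymes hydroxylate leukotrienes and other long-chain fatty acids.

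The Cyp2j6 promoter held CACTATAG at −159 to −152 while its summits lay at 20, −22, 12 and 34, well downstream of the match. Cyp46a1, the cholesterol hydroxylase known from neurons, had TCAAG at −209 to −205 and summits at −229, −199, −241 and −181, on both sides of it. The Cyp4f13 promoter held neither string, which says only that these letters are not in this window. Over all 84 promoters of the P450 genes, CACTNNAG was in 16 (19.05%) and TCAAG in 46 (54.8%). Among all promoters the shares were 14.9% and 37.9%, among those with summits of all 4 antibodies 18.3% and 37.6%, and among those with no summit 14.9% and 40.6%. TCAAG thus stood at a higher share in P450 promoters than in all promoters, but 40 of the 73 P450 promoters without any summit held it too.

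The share of P450 genes with NKX2-1 regions was below that of all protein-coding genes, which is a description with no test. A region with summits of all 4 antibodies lay within 10 kb of 27 of the 96 genes (28.1%, exact Clopper-Pearson 95% interval 19.4% to 38.2%, counting error only), against 12666 of 21631 protein-coding genes (58.6%). At least 1 antibody gave a peak at 38 of the 96 (39.6%), against 72.6% of all genes, and 58 (60.4%) had no peak at all, against 27.4%. With each list alone, the share was 32.3% of the P450 genes against 63.6% of all genes for Abcam133737, and 36.5% against 69.1% for Millipore07-601. The same shares were 29.2% against 63.3% for Abcam76013 and 36.5% against 70.3% for Abcam133638. Every antibody thus gave the P450 genes between 29.2% and 36.5%, well under its own background. Median gene length was 22.6 kb for P450 genes and 17.3 kb for all genes, and the median number of other genes within 100 kb was 2 against 3. The part of these properties in the lower share was not tested.

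**Figure D1:**
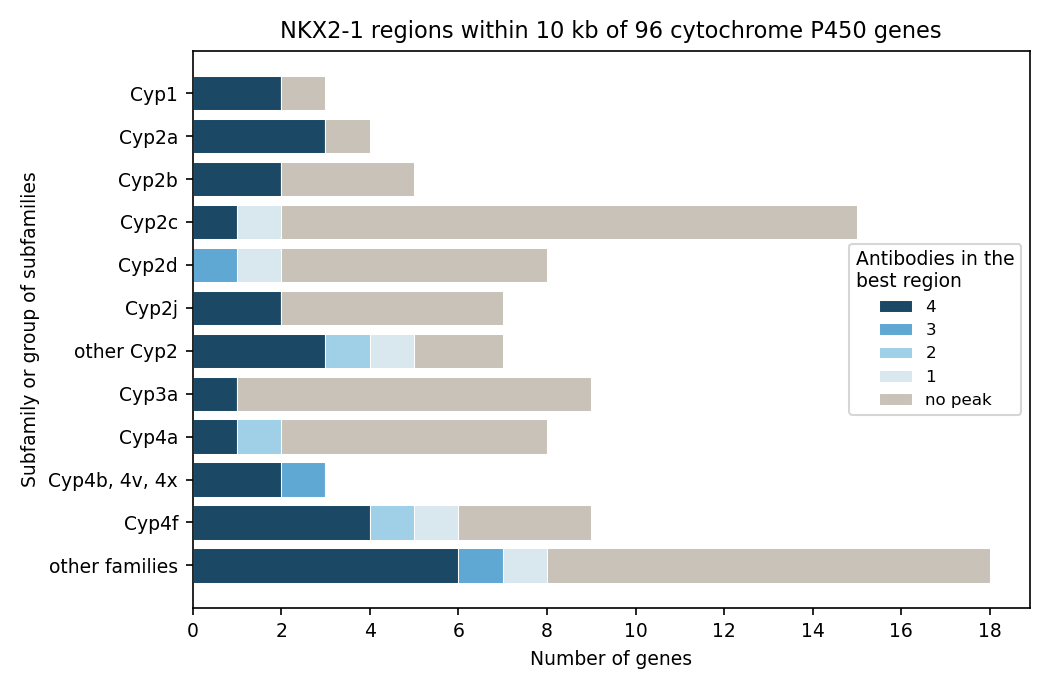
Number of P450 genes (x axis) in each subfamily or group (y axis), coloured by the number of antibodies with a summit in the best region within 10 kb, with genes without a peak in grey. Regions of all 4 antibodies were at 3 of 4 Cyp2a genes and 4 of 9 Cyp4f genes, but at 1 of 15 Cyp2c, 0 of 8 Cyp2d and 1 of 9 Cyp3a genes.

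The regions that were present had shares and folds near those of all regions. The 96 genes had 83 regions, of which 40 had all 4 antibodies (48.2%, interval 37.1% to 59.4%), against 45.9% of all 68919 merged regions. The windows of the P450 genes covered 4.35 Mb and held 9.19 regions of 4 antibodies per Mb, whereas those of all genes held 19.5 per Mb. The median of the mean fold was 7.48 over these 40 regions and 7.14 over all 31606 regions of 4 antibodies. By antibody the median fold near P450 genes and overall was 5.84 and 5.97 for Abcam133737 and 6.16 and 6.09 for Abcam76013. With Millipore07-601 it was 8.25 and 8.46, and with Abcam133638 9.05 and 8.26. Of the 40 regions, 6 (15%) had a mean fold in the top 10% of all (at least 15.3).

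The order of the 4 antibodies at P450 regions was close to their order at all regions, so it is no trait of these genes. Millipore07-601 gave the highest fold in 21 of the 40 regions and Abcam133638 in 18, while Abcam76013 gave the lowest in 21 and Abcam133737 in 14. Both antibodies with longer lists stood above both with shorter lists in 29 of the 40 (72.5%), and in 77.7% of all regions of 4 antibodies. Among the 43 regions with fewer antibodies, 13 came from Abcam133638 alone, 5 from Millipore07-601 alone and 12 from that pair. A single region came from Abcam133737 alone, and none from Abcam76013 alone. Shares over all regions are not given here for these combinations or for the highest and lowest antibody. Those counts therefore only describe the P450 regions.

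The 4 highest regions belonged to 3 genes of foreign-compound and fatty acid oxidation, and all lay inside the gene. The gene table used gives no exons, so exon and intron are not told apart. Cyp4b1, a P450 known for high activity in lung that hydroxylates fatty acids and activates plant furans, had the highest region at chr4:115645228-115645835. Its folds were 29.02 with Abcam133737, 36.9 with Millipore07-601, 26.0 with Abcam76013 and 34.8 with Abcam133638 (mean 31.7, rank 198 of 31606). A further region of 4 antibodies lay 1.87 kb outside the gene at chr4:115649244-115649935, with folds of 15.4, 22.6, 14.2 and 16.8. Between these, a lower region at chr4:115647647-115647909 reached the Cyp4b1 promoter with 3.71, 4.02 and 4.53 in 3 lists and no Abcam76013 peak. The promoter of Cyp4b1 was thus the lower-fold site between higher regions on both sides.

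Cyp2b10, which oxidises drugs and is known as a target of the receptor Nr1i3, had its highest region at chr7:25901721-25903368, inside the gene, with folds of 22.0, 29.6, 22.5 and 30.0 in the order Abcam133737, Millipore07-601, Abcam76013 and Abcam133638, an order kept from here on. A neighbouring region inside the gene, chr7:25907271-25907959, had 19.3, 34.7, 19.7 and 26.5. Cyp2b10 thus carried regions of similar height at 2 sites, with mean folds of 26.0 and 25.1. Cyp4a31, of the fatty acid omega-hydroxylases, had a region inside the gene at chr4:115575745-115576169 with folds of 18.9, 29.8, 18.7 and 24.8 (mean 23.1). At each of the 5 regions of all 4 antibodies at these 3 genes both longer lists gave higher folds than both shorter ones.

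The next genes covered drug, fatty acid and eicosanoid oxidation. Cyp4v3, a fatty acid hydroxylase, had 3 regions of 4 antibodies inside the gene, the highest at chr8:45329619-45329975 with 11.1, 16.5, 10.96 and 15.7 (mean 13.6). Cyp2w1 had the most regions of 4 antibodies of any P450 gene, 4 in all, with 13.0, 15.7, 11.2 and 12.1 (mean 13.0) at chr5:139360241-139360556, 0.76 kb outside the gene. All 4 lay outside Cyp2w1 and nearer to 3110082I17Rik or Cox19, and none remained with the nearest gene only. Cyp2c23, an arachidonic acid epoxygenase, lies outside the Cyp2c cluster and was the only Cyp2c gene with all 4 antibodies. Of its 3 regions of 4 antibodies, the highest lay 7.35 kb away at chr19:44036391-44036989, nearer to Erlin1, with 8.44, 14.0, 7.51 and 14.2 (mean 11.03). Another lay inside Cyp2c23 at chr19:44021489-44021983, with a mean fold of 7.12.

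Cyp3a13, whose promoter is printed above, had 7.84, 13.8, 8.76 and 13.0 (mean 10.8) at chr5:137921479-137921879. Cyp2b19, an epoxygenase known from the epidermis, had 9.51, 8.81, 9.01 and 12.8 (mean 10.0) at chr7:26772947-26773609, 0.66 kb outside. In Cyp2b19 the lowest fold came from Millipore07-601, unlike in the other 14 genes named in full. Cyp1b1, which oxidises polycyclic aromatic hydrocarbons and oestradiol, had 7.82, 11.2, 8.53 and 10.4 (mean 9.48) at chr17:79715378-79716028, 0.66 kb outside.

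Cyp4f17 and Cyp4f16 share the region chr17:32528697-32529114, which lay inside Cyp4f17 and 7.62 kb from Cyp4f16, with 7.41, 10.6, 6.50 and 11.9 (mean 9.08). Cyp2a22 had 8.23, 9.52, 6.50 and 9.27 (mean 8.38) at chr7:26941385-26941926, 2.13 kb outside. Counting the shared region for both genes, the 15 genes of highest mean fold spanned 8.01 to 31.7, and the highest value came from Millipore07-601 in 8 of them and from Abcam133638 in 7. Across all 27 genes the highest fold was 1.08 (Cyp39a1) to 1.93 (Cyp46a1) times the lowest, with a median of 1.57.

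**Figure D2:**
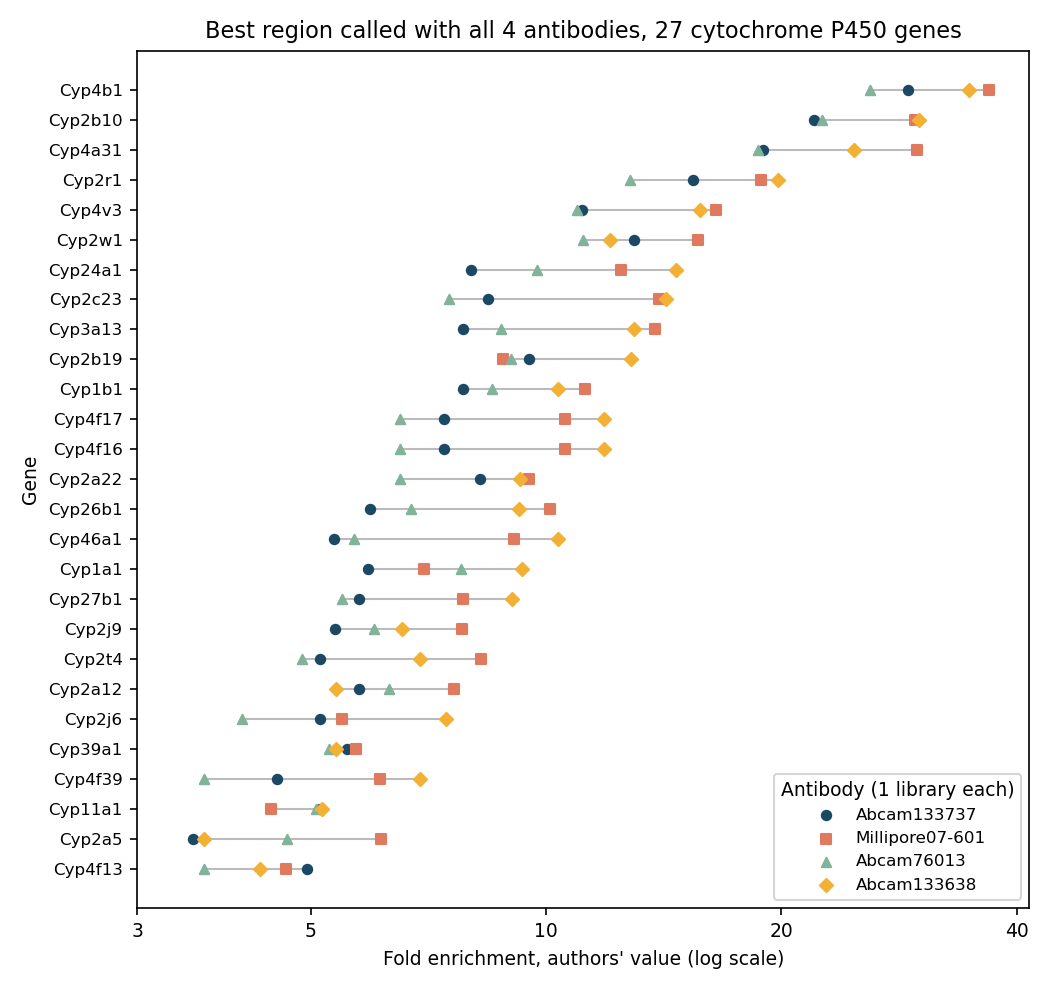
Fold enrichment of the best region of all 4 antibodies (log axis, the authors' values) for each of 27 P450 genes (y axis, ordered by mean fold), with 1 marker per antibody library and a grey line from the lowest to the highest. Cyp4b1, Cyp2b10 and Cyp4a31 stand above the rest with every antibody, and the squares and diamonds (Millipore07-601 and Abcam133638) are mostly to the right.

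Of the 4 metabolic roles listed, vitamin D metabolism was the one in which each gene had a region of all 4 antibodies, although it has just 3 genes (3 of 3, exact interval 29.2% to 100%, which includes the 58.6% of all genes). Cyp27a1, which also hydroxylates vitamin D, was listed under bile acids and had no peak. Cyp2r1 makes calcidiol from vitamin D, and its region inside the gene at chr7:114562414-114562886 had 15.4, 18.8, 12.8 and 19.8 (mean 16.7), the highest outside the 3 leading genes. Cyp24a1, which breaks calcitriol down, had 8.03, 12.5, 9.74 and 14.7 (mean 11.2) at chr2:170497374-170497648, 0.35 kb outside the gene and nearer to Pfdn4. Cyp27b1 makes calcitriol, and its region (mean fold 7.03) lay 8.38 kb away, nearer to Cdk4. Only Cyp2r1 thus had its best region inside the gene, and Vdr, the receptor of calcitriol, had 3 regions of 4 antibodies with a best mean fold of 10.1.

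The other endocrine and lipid roles had counts of 1 of 3, 1 of 6 and 2 of 6, whose wide intervals overlap that of vitamin D metabolism, so no order of the roles is drawn. In retinoic acid clearance (1 of 3, 0.84% to 90.6%), Cyp26b1 had 5.96, 10.1, 6.71 and 9.23 (mean 8.01) at chr6:84563337-84563610, 7.89 kb outside, and the neighbouring pair Cyp26a1 and Cyp26c1 had no peak. In steroid hormone synthesis 1 of 6 genes had all 4 antibodies (0.421% to 64.1%), namely Cyp11a1, which cleaves the side chain of cholesterol, with a mean fold of 4.96 at 7.40 kb. The steroid hydroxylase gene Cyp21a1 had 1 antibody, and Cyp11b1, Cyp11b2, Cyp17a1 and the aromatase gene Cyp19a1 had no peak. In sterol and bile acid metabolism 2 of 6 had all 4 (4.33% to 77.7%), Cyp46a1 and the oxysterol hydroxylase gene Cyp39a1. The best region of Cyp46a1 (mean 7.62) lay 1.01 kb outside the gene, and the separate region at its printed promoter had a mean of 6.24. That of Cyp39a1 (mean 5.48) lay 0.16 kb outside and nearer to Slc25a27. Cyp7a1, the rate-limiting enzyme of bile acid synthesis, had no peak, and neither had Cyp7b1, Cyp8b1 or Cyp27a1.

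The remaining genes with all 4 antibodies had mean folds of 4.39 to 7.50. Cyp1a1, the classic target of the aryl hydrocarbon receptor, had a mean fold of 7.50 at 4.62 kb, nearer to Edc3, and its neighbour Cyp1a2 had no peak. Mean folds of 6.43 and 5.54 were found for Cyp2j9 and Cyp2j6, of the arachidonic acid epoxygenases, and of 5.30 and 4.39 for Cyp4f39 and Cyp4f13. Cyp2t4 had 6.29 at 8.22 kb, nearer to Egln2. Cyp2a12 had 6.26 at 2.06 kb, and Cyp2a5, which hydroxylates coumarin, had 4.50 at 7.01 kb. Of the 40 regions, 28 had a P450 gene as the nearest gene and 16 lay inside one, so 12 were nearer to some other gene. For 7 of the 27 genes even the best region was nearer to a gene that is no P450, and that of Cyp4f16 lay inside Cyp4f17.

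Another 11 genes had a peak but no region of all 4 antibodies. Cyp20a1, Cyp2d22 and Cyp4x1 had 3 antibodies. Cyp4f14, Cyp2u1 and Cyp4a32 had 2, and Cyp2d11, Cyp4f37, Cyp21a1, Cyp2c70 and Cyp2s1 had 1. Close to the window limit, summits at 9.23 kb from Cyp2d11 and 9.54 kb from Cyp21a1, of 1 antibody each, lay just inside it. Just outside lay regions at 10.3 kb from Cyp4x1 (2 antibodies), 10.5 kb from Cyp2d10 (3) and 10.9 kb from Cyp2s1 (2). Regions of all 4 antibodies lay slightly further out, at 11.1 kb from Cyp27a1 and 11.7 kb from Cyp4f14.

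By family, the CYP1 genes had all 4 antibodies at 2 of 3, CYP2 at 11 of 46 (23.9%, exact interval 12.6% to 38.8%), CYP3 at 1 of 9 (11.1%, 0.281% to 48.2%), CYP4 at 7 of 20 (35%, 15.4% to 59.2%) and the other families at 6 of 18 (33.3%, 13.3% to 59.0%). The intervals of these shares overlap, and genes of 1 cluster are not independent, so no order of the families is drawn. Peakless genes included 13 Cyp2c, 6 Cyp2d (Cyp2d9, Cyp2d10, Cyp2d12, Cyp2d26, Cyp2d34 and Cyp2d40), 5 Cyp2j, 3 Cyp2b (Cyp2b9, Cyp2b13 and Cyp2b23) and all CYP3 genes but Cyp3a13. The ethanol-oxidising Cyp2e1, the olfactory Cyp2g1 and Cyp2a4 had none either. In family CYP4 the 9 without a peak were Cyp4a10, Cyp4a12a, Cyp4a12b, Cyp4a14, Cyp4a29, Cyp4a30b, Cyp4f15, Cyp4f18 and Cyp4f40.

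Peakless genes are those without a summit in the window, a choice that leaves out short distances to a region of 4 antibodies. No such distances are given here for peakless genes that are no P450, so the values have no background and only describe. The distance to the nearest region of 4 antibodies ran from 11.1 kb (Cyp27a1) to 602 kb (Cyp2c67), with a median of 135 kb over the 58 genes. Among the Cyp2c genes it ran from 75.2 kb upward with a median of 355 kb, and among the Cyp3a genes from 57.9 to 414 kb with a median of 221 kb. Cyp4a genes without a peak were 42.3 to 210 kb away. These distances place the peakless Cyp2c and Cyp3a genes in stretches without regions of 4 antibodies. Whether such stretches are longer than those around other peakless genes was not tested.

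With at most 250 kb between neighbouring members, 73 of the 96 genes formed 11 clusters and 23 stood alone. Regions of all 4 antibodies were at 15 of the 73 clustered genes (20.5%, 12.0% to 31.6%) and at 12 of the 23 single ones (52.2%, 30.6% to 73.2%), and 6 of the 11 clusters held any. The share of the single genes was near the 58.6% of all genes. Clustered genes share regions and sequence, so their interval is too narrow.

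The clusters fell far apart. The 14 Cyp2c genes on chromosome 19 span 1180 kb and had 1 region, of 1 antibody, at Cyp2c70. The 8 Cyp3a genes on chromosome 5 span 770 kb and had no region with any antibody, whereas Cyp3a13, elsewhere on chromosome 5, had the promoter region described above. The 8 Cyp2d genes on chromosome 15 had 3 regions and none of all 4. By contrast, the stretch of 7 genes from Cyp2b23 to Cyp2t4 on chromosome 7 had such a region at 5 genes. It held 6 regions, or 28.4 per Mb of gene windows, against 19.5 for all genes. None of the 6 lay inside a P450 gene. The 2 of Cyp2t4 were nearer to Egln2, and Cyp2t4 had none with the nearest gene only. The 8 genes from Cyp4f39 to Cyp4f13 on chromosome 17 had 5 regions (17.7 per Mb), at 4 genes.

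On chromosome 4 the 10 genes from Cyp4x1 to Cyp4b1 span 541 kb. The 3 regions of all 4 antibodies (7.97 per Mb) all lay at its Cyp4b1 end, at Cyp4a31 and Cyp4b1, and 6 of its 8 Cyp4a genes had no peak. The Cyp2j cluster on the same chromosome had regions at 2 of 7 genes. The chromosome 7 run from Cyp2s1 to Cyp2a4 had them at Cyp2b10 only, 1 of 5. The pairs Cyp11b1 with Cyp11b2 and Cyp26a1 with Cyp26c1 had no region.

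**Figure D3:**
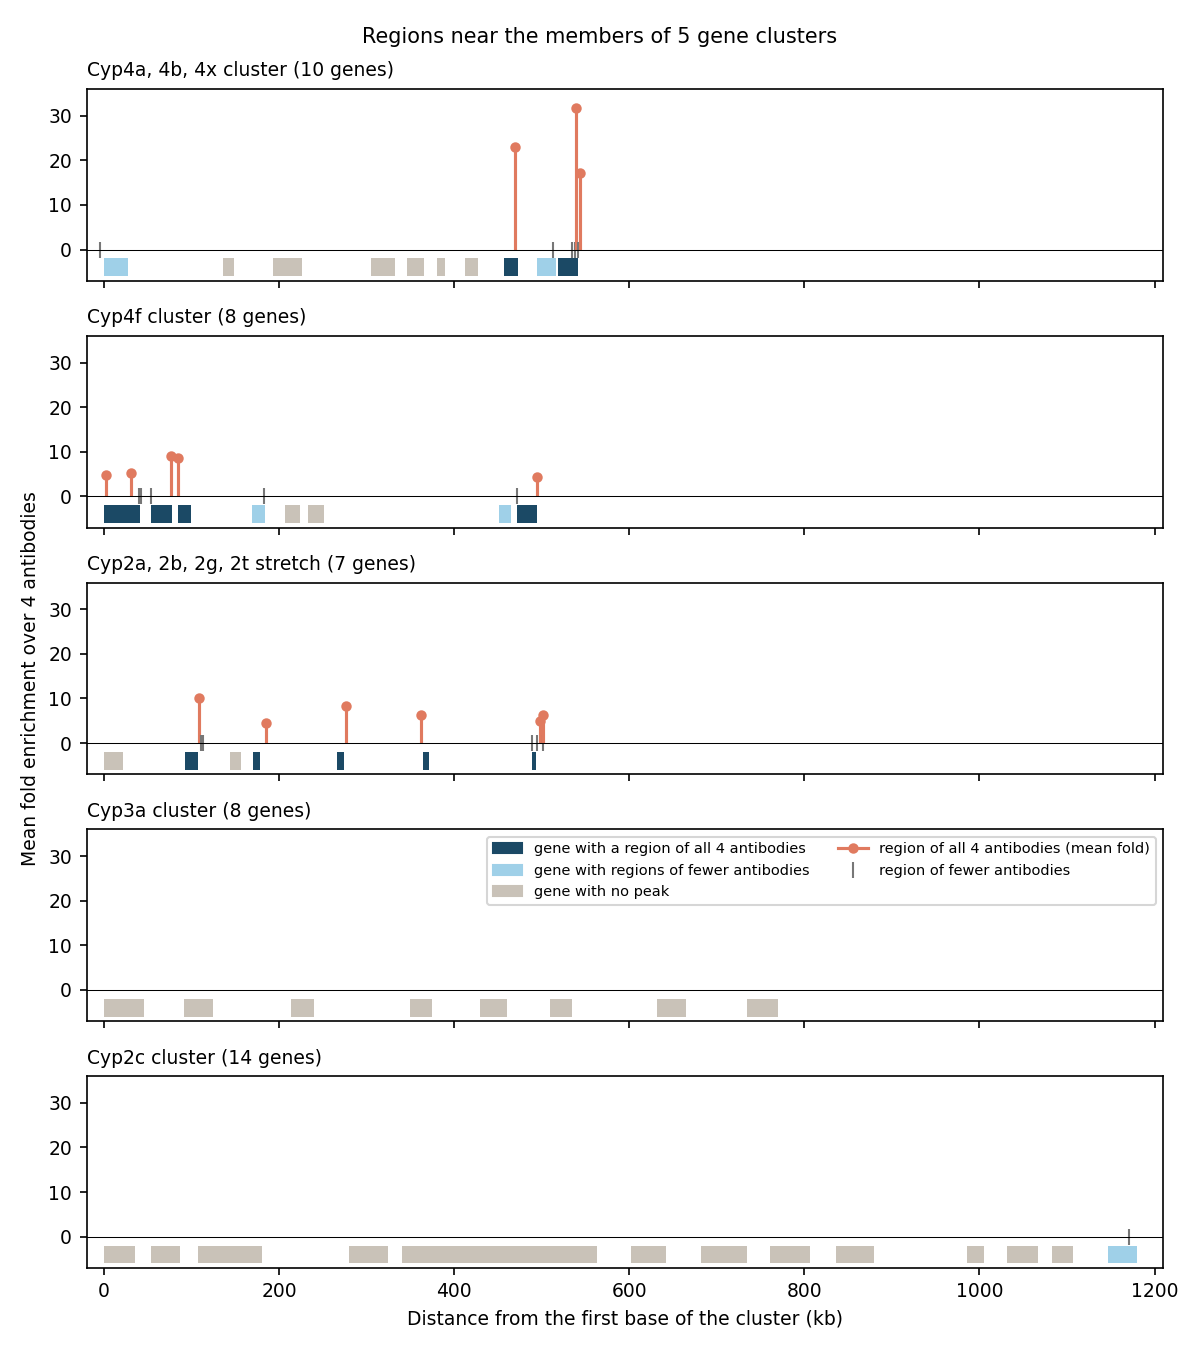
Genes (bars under the zero line) and NKX2-1 regions (above) in 5 P450 clusters, by distance in kb from the first base of each cluster; stems give the mean fold over 4 antibodies of regions with all 4, and ticks mark regions with fewer. The Cyp3a panel has no region, the Cyp2c panel has 1 tick, and the highest stems stand at the right end of the Cyp4a, 4b, 4x cluster.

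Promoter sequence shared between copies was set beside this pattern, without a test. Of the 74 genes with a promoter, 13 had one at least 90% identical, by edit distance over its 300 bases, to that of another P450 gene, among them Cyp2b9 with Cyp2b13, Cyp3a41a with Cyp3a41b and Cyp2a4 with Cyp2a5. Cyp2a5 was the single gene of the 13 with a region of all 4 antibodies (7.69%), whereas 21 of the other 61 had one (34.4%). How reads that match several copies were handled is not given in the sources used here. Its part in the empty clusters was not tested. Leaving the 13 genes out gave 26 of 83 (31.3%), still under the 58.6% of all genes; this alternative was chosen after seeing the data.

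Among P450 genes with a region of all 4 antibodies, the share with 1 close to a start site was below that of all such genes. This share rests on 22 genes and has no interval or test. Of the 27 genes, 22 have a listed start, and 8 of these (36.4%) had a region of all 4 antibodies within 1 kb of it. Among all genes with such a region and a listed start it was 6040 of 10177 (59.3%). The median distance to the nearest one was 2.13 kb for the P450 genes and 0.342 kb for all genes. The best region of a gene had a median mean fold of 8.38 for P450 genes and 9.01 for all genes, and 4 of the 27 (14.8%) reached the top 10% against 18.8% of all genes.

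Genes that serve P450 enzymes were listed by role. Of 8 redox partner genes, 7 had all 4 antibodies (87.5%, exact interval 47.3% to 99.7%, which includes the 58.6% of all genes), with best mean folds of 35.4 at Cyb5b, 20.8 at Cyb5a, 16.2 at Cyb5r3, 12.8 at Fdx1, 8.41 at Fdxr, 8.39 at Por and 8.03 at Pgrmc2, while Pgrmc1 had 1 antibody. Cyb5b, which encodes the cytochrome b5 of the outer mitochondrial membrane, thus had a higher mean fold than any of the 96 genes. Of 13 genes for sensors of foreign compounds and lipids, 11 had all 4 (84.6%, interval 54.6% to 98.1%, which also includes 58.6%). Rxra, the shared partner of these nuclear receptors, had the highest mean fold of them (44.0). Nr1i3 followed with 26.1 in a region nearer to Apoa2, Nr1i2 had 2 antibodies and Hnf4a had no peak. Ahr, the receptor that drives Cyp1a1 and Cyp1b1, had a mean fold of 6.07.

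Of 20 genes for other biotransformation enzymes, 13 (65%, interval 40.8% to 84.6%) had all 4 antibodies, near the 58.6% of all genes. Fmo2, the flavin monooxygenase known from lung, had a mean fold of 16.7, and Fmo5 had 9.22. Outside the symbol rule, the thromboxane synthase gene Tbxas1 had 6 regions of 4 antibodies and a best mean fold of 27.7. Cyp51, of sterol synthesis, had 3 antibodies and the prostacyclin synthase gene Ptgis 2.

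The lower share of the P450 genes was seen under each setting tried. Across stricter peaks, other windows, another overlap rule, the nearest gene only and each antibody left out, it ran from 8.33% to 49.0%, and the share of all genes from 22.2% to 74.6%. In each of the 13 settings the P450 genes were below all genes. The number of P450 genes ranged widely with the window, from 11 with a summit inside the gene to 47 within 50 kb.

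**Figure D4:**
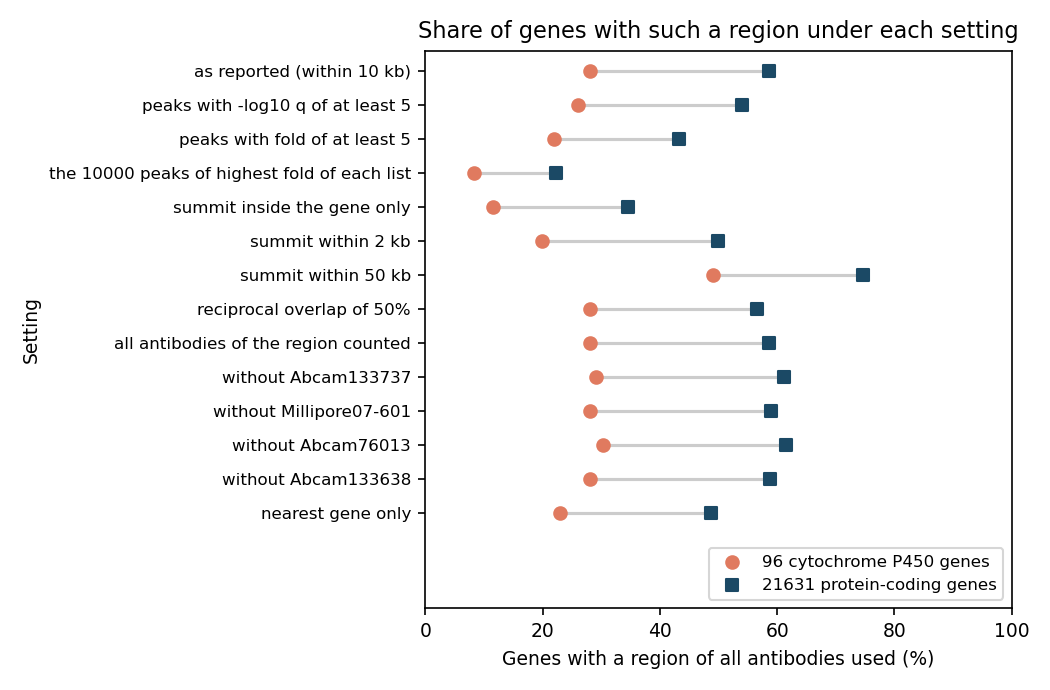
Percent of genes (x axis) with a region of all antibodies used, for 96 P450 genes (circles) and 21631 protein-coding genes (squares), under each setting (y axis), with a grey line between the pair. The circle lies left of the square in every line, at 28.1% and 58.6% for the values as reported.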

How the data were processed

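Peaks of 4 NKX2-1 antibody libraries, each called against 1 input, were analysed. Per the file headers, the authors used MACS 2.1.2 with a q-value limit of 0.05, an effective genome size of 1.87 Gb and 1 tag kept per position, and they scaled the smaller of both libraries to the depth of the larger one. Per the file headers, each line gives an interval, a summit, a pileup signal in tags, a fold, which is a ratio to local background, and −log10 values of a p-value and q-value. These fold and signal values are the authors' and only describe, rank or filter peaks. Folds of different lists are averaged or set side by side without a test. The submitters' processing notes name mm10 as the build and deepTools, MACS2, SAMtools, Bowtie, Trimmomatic and FastQC as tools. The treatment of reads that match several places is not given in the sources used here.

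With Python 3.11.15, pandas 2.3.3, numpy 2.4.6 and SciPy 1.17.1, overlapping peaks (1 bp) were merged and summits were assigned to RefSeq genes of GRCm38.p6 by gene ends. The gene table gives no exons, and no genome sequence was used. A gene's best region is the one of highest mean fold. The 15 genes of highest mean fold are given with each antibody's value, and the other genes with a region of all 4 antibodies with the mean. Genes with fewer antibodies are given by their number, and peakless genes by family. Windows, clusters and gene lists, and the genes themselves, were chosen with earlier results of these data known, so that the high Cyp4b1 region is no independent support. Intervals are exact Clopper-Pearson intervals at 95%. They and the depth of the libraries cover counting error only. Merging and assignment were tested on simulated peaks beside genes that lie far from other genes. Each gene was given its planted number of antibodies, and peaks planted beyond the window were left out. Partly overlapping peaks and clustered genes were not part of that test. The alternatives are given in the closing section.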

Additional observations from a re-analysis of the deposited data

How the results depend on the processing

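As reported, 27 of the 96 P450 genes had a region of all 4 antibodies. The count was 8 with only the 10000 peaks of highest fold of each list, 11 with a summit inside the gene and 47 within 50 kb. In the same order CYP2 genes numbered 3, 5 and 20, and also 7 within 2 kb, against 11. CYP4 genes numbered 3 with the highest peaks and 12 within 50 kb, against 7. CYP1 and the other families together numbered 1, 0 and 14, and also 4 within 2 kb and 5 with the nearest gene only, against 8. The share of all genes, 58.6% as reported, was 53.9% at a −log10 q-value of at least 5, 43.3% at a fold of at least 5, 22.2% with the highest peaks, 34.5% inside the gene, 49.9% within 2 kb, 74.6% within 50 kb, 56.5% with a reciprocal overlap of 50% and 48.8% with the nearest gene only. It was 58.8% to 61.5% with each antibody left out, when the P450 genes numbered 27 to 29. Cyp4x1 was gained without Abcam133737, and Cyp20a1 and Cyp2d22 without Abcam76013. Of 116 alternative values, 92 stayed within the limits set and 24 moved. Clusters joined at 100 kb numbered 18, of which 7 held such a region, and at 500 kb 10 and 5. Leaving out names with a last letter, chosen after seeing the data, gave 27 of 91. A planned comparison by protein identity was not run, since protein sequences were not used here, and promoter identity took its place. The cause of the changes with window and peak rank is the construction of these settings, which count more or fewer summits. Depth limits the absence of a peak to occupancy that these lists could call.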
